A study of Mus musculus with 13 samples.

Results

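The genes described here were present in lymphoid progenitors that lack Ly6D and Gfra2 on their surface and were at or near 0 in progenitors that carry both. The members were chosen by their measured levels: each had a mean of at least 10 CPM over the 6 Ly6D-Gfra2- libraries and under 1 CPM in each of the 3 Ly6D+Gfra2+ libraries. CPM is the raw count of a gene per 1000000 counts of a library, summed without the ribosomal RNA identifier. Of 24072 identifiers, 9299 reached the mean of 10 CPM, and 46 of these (0.495%) also stayed under 1 CPM in Ly6D+Gfra2+. The rule leaves out 5 names (Fry, Tcf7, Nfil3, S100a9 and S100a13), 4 of which were among the 46, so 42 genes remained as members. Acot11, Ebi3 and Epha7, which lead the set's working name, were members. Clu, the fourth gene in that name, was not, because its mean in Ly6D-Gfra2- was 8.06 CPM.

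Common lymphoid progenitors (CLP) are bone marrow cells that can give rise to B, T, natural killer and dendritic cells. Ly6D, a surface protein, marks those progenitors that are on their way to becoming B cells. Gfra2 binds neurturin, a growth factor best known from the nervous system. As progenitors commit to one lineage, genes that belong to other fates, low-level genes of other tissues included, are commonly switched off, while B lineage factors are switched on.

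The RNA came from the bone marrow of mice of genotype WT and strain C57BL/6, and no treatment, sex or age is given in the labels. Cells were sorted by flow cytometry into groups labelled CLPLy6D-Gfra2- (6 libraries, replicates 1 to 6), CLPLy6D+Gfra2- (4 libraries, replicates 1, 2, 5 and 6) and CLPLy6D+Gfra2+ (3 libraries, replicates 4, 5 and 6), written below without the CLP prefix. Library names start with P or T, a prefix the labels do not explain; Ly6D-Gfra2- replicates 1 to 3 and Ly6D+Gfra2- replicates 1 and 2 have P, and all Ly6D+Gfra2+ libraries have T. The labels do not say whether replicates are separate animals, so each p-value reflects no more than the spread among the libraries, which may be technical. In such bulk samples, fewer cells of a type and less RNA per cell cannot be told apart.

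Total counts ran from 6892728 to 23705975 per library, and 3 counts in a library correspond to 0.143 to 0.444 CPM. Between 12904 and 13969 identifiers had a count in Ly6D-Gfra2- libraries. Ly6D+Gfra2- replicate 1 had 11636, against 12964 to 13364 in the other three, and Ly6D+Gfra2+ libraries had 10837 to 12369. Gfra2 was at 288 to 476 CPM in Ly6D+Gfra2+ and at most 15.8 CPM in all other libraries. Ly6d was at 154 to 562 CPM in the Ly6D+ libraries and at 0.668 to 9.48 CPM in 5 of the Ly6D-Gfra2- libraries. The library labelled Ly6D-Gfra2- replicate 3 went against its label, with Ly6d at 239 CPM. The library of Ly6D-Gfra2- replicate 5 stood apart for some neutrophil granule genes, with S100a8 at 100.1 CPM, Ltf at 40.8 CPM and Camp at 15.3 CPM, against at most 16.3, 0.572 and 2.22 CPM in the other Ly6D-Gfra2- libraries. Other granule genes were not high there: Prtn3 (1.23 CPM) and Ctsg (1.80 CPM) were lowest of the 6 libraries in it, and Elane was at 11.8 CPM against up to 17.8 CPM. The haemoglobin gene Hbb-bs was also highest in it, at 161.6 CPM against at most 48.4 CPM. Without both of these libraries, the rule gave 45 genes, 34 of them among the 42 members; Ank1, Cmtm4, Dusp28, Kif7, Lcn2, Ngp, Prmt2 and Strip2 dropped out.

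Promoter sequences of 4 members are shown because their genes stand for the patterns described below. Acot11, Ebi3 and Epha7 were at 0 in every Ly6D+Gfra2+ library while still present in Ly6D+Gfra2-, and Ddx4 was already low in Ly6D+Gfra2-. The sequences are 300 bases around a RefSeq transcription start site in build GRCm38.p6, read 5′ to 3′ on the gene's strand, with CpG dinucleotides in capitals. The positions are chr4:106804958-106805257 (minus strand) for Acot11, chr17:55952373-55952672 (plus strand) for Ebi3, chr4:28812881-28813180 (plus strand) for Epha7 and chr13:112652261-112652560 (minus strand) for Ddx4.
Acot11: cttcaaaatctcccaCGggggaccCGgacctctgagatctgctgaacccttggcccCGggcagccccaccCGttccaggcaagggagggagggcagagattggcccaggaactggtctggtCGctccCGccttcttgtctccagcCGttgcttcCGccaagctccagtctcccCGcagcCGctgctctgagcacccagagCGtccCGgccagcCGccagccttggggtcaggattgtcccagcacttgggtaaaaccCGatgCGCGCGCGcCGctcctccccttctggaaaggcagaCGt
Ebi3: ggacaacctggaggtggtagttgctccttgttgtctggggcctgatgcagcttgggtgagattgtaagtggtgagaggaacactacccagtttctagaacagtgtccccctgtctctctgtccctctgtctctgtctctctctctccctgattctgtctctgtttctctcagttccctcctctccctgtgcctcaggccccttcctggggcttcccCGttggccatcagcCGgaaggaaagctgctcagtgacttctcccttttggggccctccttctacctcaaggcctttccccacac
Epha7: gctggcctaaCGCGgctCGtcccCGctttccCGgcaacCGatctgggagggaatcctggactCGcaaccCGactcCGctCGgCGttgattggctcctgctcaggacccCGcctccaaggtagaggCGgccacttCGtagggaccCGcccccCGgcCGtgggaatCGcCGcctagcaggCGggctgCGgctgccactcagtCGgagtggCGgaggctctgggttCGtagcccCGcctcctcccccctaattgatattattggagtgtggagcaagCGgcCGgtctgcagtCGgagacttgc
Ddx4: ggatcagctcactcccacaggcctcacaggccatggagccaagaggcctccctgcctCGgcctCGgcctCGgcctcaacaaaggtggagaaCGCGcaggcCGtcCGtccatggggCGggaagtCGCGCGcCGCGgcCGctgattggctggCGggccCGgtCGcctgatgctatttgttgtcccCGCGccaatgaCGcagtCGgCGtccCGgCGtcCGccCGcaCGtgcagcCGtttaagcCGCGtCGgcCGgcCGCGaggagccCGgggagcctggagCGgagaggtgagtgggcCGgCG
The Ebi3 promoter held 2 CpG dinucleotides, that of Acot11 20, that of Epha7 28 and that of Ddx4 38. RefSeq promoters were matched for 37 of the 42 members, 42 promoters in all. At least 10 CpG dinucleotides were found in 73.8% of these 42 promoters, in 78.6% of the 2357 promoters of other genes in the members' Ly6D-Gfra2- level range, and in 43.5% of all 32851 promoters. The members' promoters were thus near those of genes of like level in CpG content. Letters of 5 binding motifs of lymphoid and blood cell factors were searched on both strands. The E-box CAGCTG was in 11.9% of member promoters and 14.2% of those of like level, the RUNX letters TGTGGT in 14.3% and 13.7%, and the Ikaros letters TGGGAA in 28.6% and 25.3%. GATA letters AGATAA were in 5 member promoters (11.9%), against 5.81% of promoters of like level and 11.2% of all. The longer palindromic EBF motif was in 2 member promoters (4.76%), those of B4gat1 and Paqr7, against 0.636% and 0.904%. These matches describe letters only, and some pairs of promoters belong to the same gene.

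The members had low levels throughout. Their means in Ly6D-Gfra2- ran from 10.1 to 24.8 CPM with a median of 13.3 CPM, and 31 of 42 lay under 15 CPM. CPM is not divided by gene length, so these values do not rank genes against each other. In Ly6D+Gfra2+, 86 of 126 values were exactly 0, 14 members were at 0 in all 3 libraries, and the highest value was 0.920 CPM, from 8 counts of Cpt2 in replicate 4. The members' summed level was 464 to 805 CPM in Ly6D-Gfra2-, 357 to 557 CPM in Ly6D+Gfra2- and 2.65 to 7.01 CPM in Ly6D+Gfra2+. In 33 members, all 6 Ly6D-Gfra2- libraries lay above all 3 Ly6D+Gfra2+ libraries. The rule set the contrast of these 2 groups, so its size is a description. The edgeR quasi-likelihood test called 15 of 40 members tested lower in it at an adjusted p under 0.05, against 0.464% of 12722 genes, and DESeq2 38, against 3.56%. Nothing is read from these counts.

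Near the mean threshold, B4gat1 (10.1 CPM), Pacsin1 and Ank1 (both 10.2 CPM) were just inside, and Zfp647 (9.99 CPM), Lrfn4 and Spib (both 9.80 CPM) just outside. Near the limit in Ly6D+Gfra2+, the highest library of Cpt2 (0.920 CPM), Dusp28 (0.774 CPM) and Armcx1 (0.690 CPM) was inside, and that of Galc and Rhobtb1 (both 1.001 CPM) and Irak1bp1 (1.03 CPM) outside. The 42 genes therefore end a continuous range. The members were spread over 16 chromosomes. Chromosome 4 held 7 of them (16.7%), against 6.12% of all identifiers with a mean of at least 10 CPM, Acot11, Cpt2, Epha7, Fyb2, Paqr7 and Pdp1 among them. All but one of the 42, D130017N08Rik, are annotated as protein coding.

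**Figure D1:**
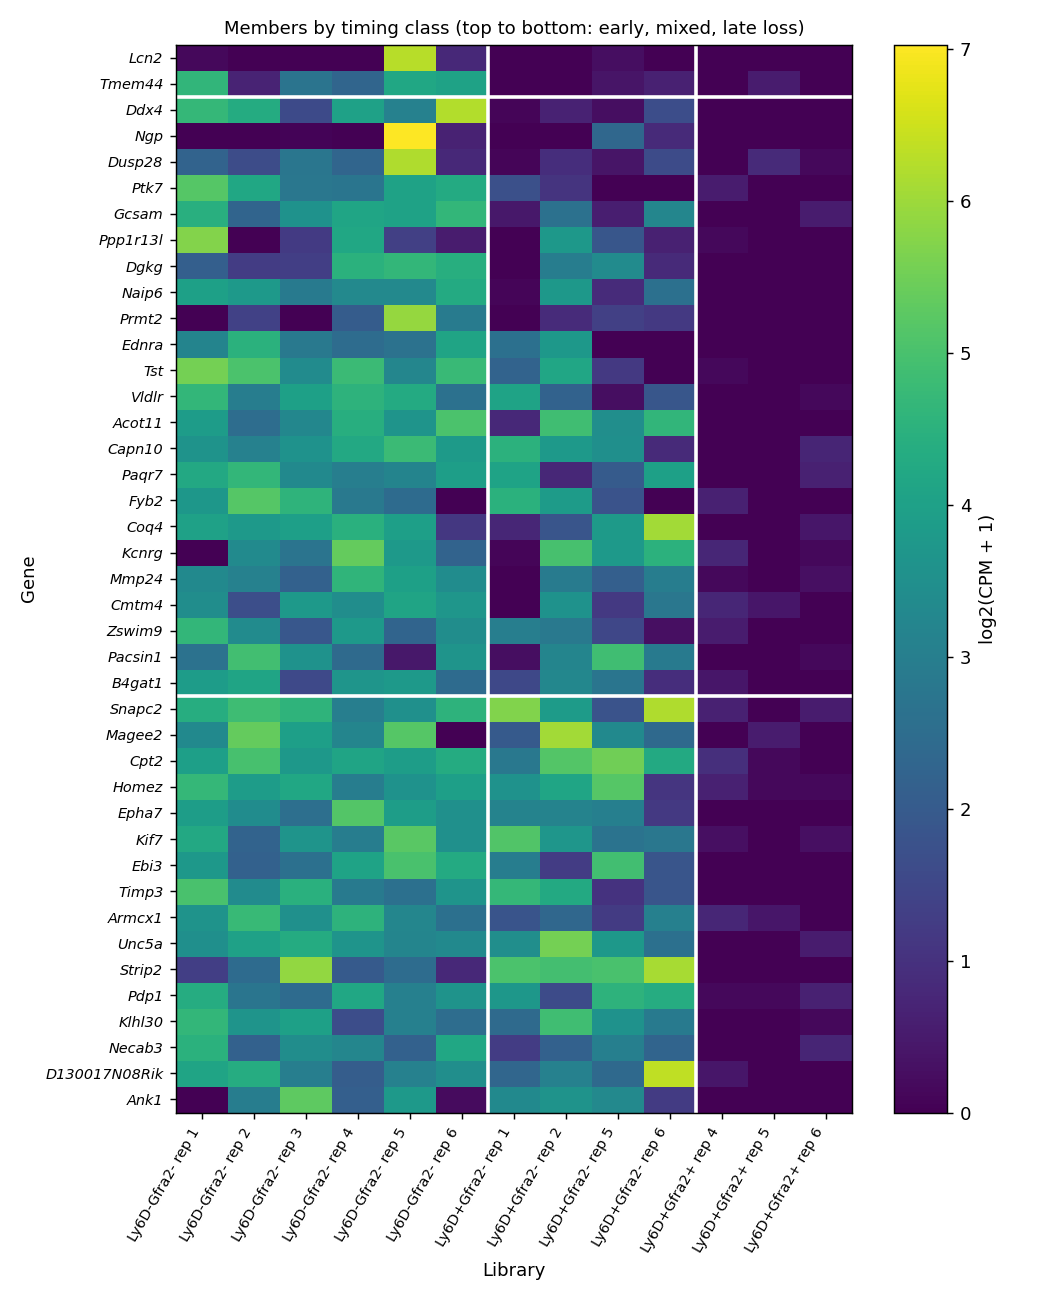
Colour gives log2(CPM + 1) of 41 members (rows) in each of the 13 libraries (columns), with white lines between groups and between timing classes. The 3 Ly6D+Gfra2+ columns are dark by the rule, while the 4 Ly6D+Gfra2- columns range from dark in the top rows to as bright as Ly6D-Gfra2- in the bottom rows.

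The Ly6D+Gfra2- libraries did not enter the rule, and they separated members already low in that group from those still present there. A gene under 1 CPM in all 4 Ly6D+Gfra2- libraries was classed as early loss, a gene at or above 1 CPM in all 4 as late loss, and the rest as mixed. Early loss held 2 members, Lcn2 and Tmem44, mixed 23 and late loss 17. Of the mixed members, 13 were under 1 CPM in 1 library, 7 in 2 libraries and 3 in 3 libraries. Without Ly6D-Gfra2- replicate 5, 0 members were early, since Lcn2 rested on it and Tmem44 then missed the mean of 10 CPM. The early class held 1 gene without Ly6D-Gfra2- replicate 1 and 4 without Ly6D+Gfra2- replicate 6. With libraries of prefix T alone, which leaves 2 in Ly6D+Gfra2-, the rule gave 52 genes, 11 early and 22 late. The classes describe sorted groups, not a time course. When the rule was applied with Ly6D+Gfra2- in place of Ly6D+Gfra2+, 4 identifiers met it, against 46.

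Set against 2401 other identifiers in the same range of Ly6D-Gfra2- means, the members were more often low in Ly6D+Gfra2-. Of the 2401, 1948 (81.1%) were at or above 1 CPM in all 4 Ly6D+Gfra2- libraries, against 17 of 42 members (40.5%), and 1 (0.0416%) was under 1 CPM in all 4, against 2 members (4.76%). The ratio of the Ly6D+Gfra2- to the Ly6D-Gfra2- mean had a median of 0.536 in members (quartiles 0.332 and 1.13) and 0.945 in the other identifiers (0.668 and 1.30). This ratio was under 0.5 in 21 members (50%) and in 272 others (11.3%), in 37 of the 52 genes that prefix T alone gave, and over 1 in 14 members (33.3%) and in 1095 others (45.6%). The members were also patchier within groups: 9.13% of their 252 values in Ly6D-Gfra2- were under 1 CPM, against 0.819% in the others, and their median coefficient of variation was 68.2% against 51.2% in Ly6D-Gfra2- and 101.8% against 67.0% in Ly6D+Gfra2-. These are descriptions with no test. They depend on the comparison group as drawn, which holds no gene that the rule selected.

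Detection differed between the 4 Ly6D+Gfra2- libraries. Ly6D+Gfra2- replicate 1, the one with fewest detected identifiers, had 16 members (38.1%) under 1 CPM, and 15.1% of the 2401 others. In replicates 2, 5 and 6, 7 (16.7%), 9 (21.4%) and 12 (28.6%) members were under 1 CPM, beside 1.25%, 3.12% and 2.37% of the others. The excess of members was therefore seen in each of the 4 libraries. It was not particular to this group: in Ly6D-Gfra2- libraries, 2.38% to 19.0% of members were under 1 CPM, beside 0.333% to 1.79% of the others. In Ly6D+Gfra2+ replicates 4, 5 and 6, where all members are under 1 CPM by the rule, 10.7%, 23.6% and 6.25% of the others were too, so low detection moved with that group. Its part in the set was not tested. Without Ly6D+Gfra2- replicate 1, 2 members were early and 23 late.

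**Figure D2:**
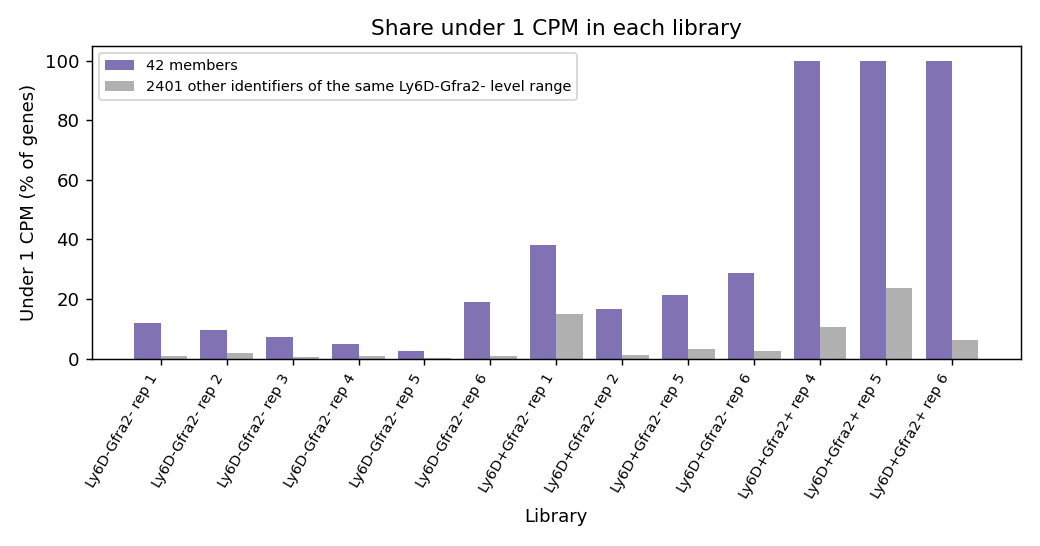
Bars give the percentage of genes under 1 CPM in each of the 13 libraries, for the 42 members and for the 2401 other identifiers of the same Ly6D-Gfra2- level range. The members' bar is higher in every library; the 100% in Ly6D+Gfra2+ is set by the rule, and the grey bars are highest in Ly6D+Gfra2+ replicate 5 (23.6%) and Ly6D+Gfra2- replicate 1 (15.1%).

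In the edgeR fit between Ly6D+Gfra2- and Ly6D-Gfra2-, 0 of 40 members tested were called, beside 0.0% of all 12722 genes (0 genes, smallest adjusted p = 0.659). At an unadjusted p under 0.05 there were 6 members and 599 genes (4.71%). The estimate was negative in 28 of 40 members, with a median log2 fold change of -0.66 against -0.01 over all genes. DESeq2 called 3 members lower, Ddx4, Tmem44 and Ptk7, among 13 genes lower (0.102%). Ngp and Lcn2 did not pass the filter on low counts. Ly6D-Gfra2- libraries entered the rule, so these estimates describe the members and do not test them.

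The comparison of Ly6D+Gfra2+ with Ly6D+Gfra2- called 9 of 40 members, all lower, against 26 of 12722 genes lower (0.204%) by edgeR. They included Acot11, Ebi3, Strip2, Epha7, Cpt2, Klhl30, Snapc2 and Timp3. DESeq2 called 29 members lower, against 2.55% of genes. The rule fixed the low side of this comparison, so a low value in Ly6D+Gfra2+ is no finding; what the libraries outside the rule add is that these genes were still present in Ly6D+Gfra2-. Of the 13 fits that each left out 1 library, Ebi3 was called in 6, Acot11 in 5, Cpt2, Epha7 and Strip2 in 3, Klhl30 in 2, Snapc2 in 1 and Timp3 in 0. The number of members called was 1 without any one of Ly6D-Gfra2- replicates 1, 2, 4, 5 and 6 or Ly6D+Gfra2+ replicate 5. It was 2 without Ly6D+Gfra2- replicate 5, 3 without Ly6D+Gfra2- replicate 2 or 6, 4 without Ly6D-Gfra2- replicate 3 or Ly6D+Gfra2+ replicate 4, and 7 and 10 without Ly6D+Gfra2- replicate 1 and Ly6D+Gfra2+ replicate 6. With libraries of prefix T only, 0 members were called, with 2 Ly6D+Gfra2- libraries left. Without Ly6D-Gfra2- replicates 3 and 5 together, 2 were called, Strip2 among them. Both comparisons with Ly6D+Gfra2- share its 4 libraries.

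**Figure D3:**
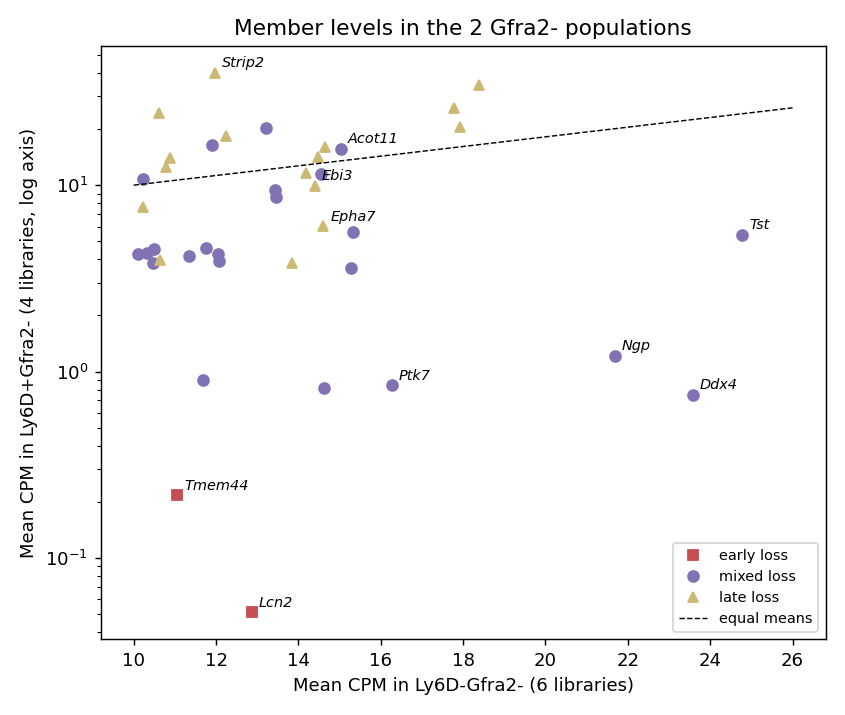
Each of 41 members is placed by its mean CPM in Ly6D-Gfra2- (horizontal) and in Ly6D+Gfra2- (vertical, log axis), with the timing class as symbol and a dashed line at equal means. Strip2 lies above the line, and Ddx4, Ptk7, Tmem44, Ngp and Lcn2 lie far below it.

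Secreted and surface proteins were among the members with lower Ly6D+Gfra2- levels, with a median ratio to Ly6D-Gfra2- of 0.417 over 12 genes, 1 early, 7 mixed and 4 late. Ebi3 (NM_015766, chromosome 17, 55952623 to 55957022) encodes the beta subunit that pairs with other chains to form the cytokines interleukin 27 and interleukin 35. In Ly6D-Gfra2- its lowest, median and highest levels were 3.53, 14.1 and 31.1 CPM (mean 14.4 ± 10.1, SD, n = 6), and Ly6D+Gfra2- replicates 1, 2, 5 and 6 held 6.84, 1.37, 29.0 and 2.59 CPM. It had 0 counts in all 3 Ly6D+Gfra2+ libraries. The 2 Gfra2- groups overlapped, and Ly6D+Gfra2- replicate 5 was close to the top Ly6D-Gfra2- library. Taking 3 counts over the Ly6D+Gfra2+ libraries together as the floor (0.112 CPM), Ebi3 was at least 88.7-fold lower in Ly6D+Gfra2+ than in Ly6D+Gfra2- (edgeR quasi-likelihood test with Benjamini-Hochberg adjustment, adjusted p = 0.0336). Without Ly6D+Gfra2- replicate 5 this bound was 32.1-fold and the adjusted p 0.120. Without Ly6D+Gfra2+ replicate 5 or 6 the higher floor lowered this bound, like all such bounds below, by 1.51 times. Of 12 tested genes of the interleukin 12 family and its receptors, Ebi3 was the one called lower in that comparison, and 0 were called higher. The rule chose Ebi3 by its Ly6D+Gfra2+ values, so this count is a description and not a test of the family.

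Epha7 (NM_001290434, chromosome 4, 28813066 to 28967503) is a receptor tyrosine kinase for ephrins, signals passed between touching cells. Its levels in Ly6D-Gfra2- were 4.90, 12.3 and 34.4 CPM (lowest, median and highest), and those in Ly6D+Gfra2- replicates 1, 2, 5 and 6 were 7.79, 7.83, 7.26 and 1.24 CPM, against 0 in all Ly6D+Gfra2+ libraries. Replicates 1, 2 and 5 of Ly6D+Gfra2- lay close together, inside the Ly6D-Gfra2- range. Epha7 was at least 53.7-fold lower in Ly6D+Gfra2+ than in Ly6D+Gfra2- (edgeR adjusted p = 0.0428). It was the one gene called among 8 tested Eph receptors and ephrins, all 8 of which had negative estimates (median log2 fold change -1.33, against 0.03 over all genes). Relative to Ly6D-Gfra2-, 2 of the 8 were negative in Ly6D+Gfra2- (median 0.68) and 6 in Ly6D+Gfra2+ (median -0.84). The summed level of the whole list was 70.8 to 188 CPM in Ly6D-Gfra2-, 133 to 252 CPM in Ly6D+Gfra2- and 105 to 122 CPM in Ly6D+Gfra2+. Epha7 was chosen by its Ly6D+Gfra2+ values, so its call within the list is a description.

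Ptk7, a pseudokinase receptor of Wnt signalling, had lower values already in Ly6D+Gfra2-. It was at 5.64, 16.4 and 34.8 CPM (lowest, median and highest) in Ly6D-Gfra2- and at 2.28, 1.10, 0 and 0 CPM in Ly6D+Gfra2- replicates 1, 2, 5 and 6. All 4 lay under every Ly6D-Gfra2- library, and Ly6D+Gfra2+ replicate 4 still held 0.460 CPM. On the log2 scale, the fitted Ly6D+Gfra2- level relative to Ly6D-Gfra2- came to -5.09 ± 1.53 (SE), with an adjusted p of 0.807 by edgeR and 0.00812 by DESeq2. Tmem44, a transmembrane protein of little-known function, was at 0, 0, 0.307 and 0.562 CPM in Ly6D+Gfra2-, against 0.620 to 23.5 CPM in Ly6D-Gfra2-. Its adjusted p was 0.807 by edgeR and 0.00496 by DESeq2, with an edgeR log2 fold change of -6.28 ± 1.78 (SE).

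Among the other surface members, Vldlr, a lipoprotein receptor that also binds reelin, was at 15.9, 3.67, 0.204 and 2.70 CPM in Ly6D+Gfra2- against a Ly6D-Gfra2- mean of 15.3 ± 7.86 CPM (SD, n = 6). Gcsam, a signalling adaptor named for germinal centre B cells, was at 0.380, 5.15, 0.511 and 8.32 CPM against a mean of 15.3 ± 7.23 CPM. Ednra, the endothelin A receptor, was at 5.004, 12.4, 0 and 0 CPM against 10.3 ± 7.002 CPM, so its 2 Ly6D+Gfra2- libraries of prefix P kept it and its 2 of prefix T did not. Prefix and level cannot be told apart there with so few libraries. Timp3, an inhibitor of metalloproteinases, had the same split, at 24.5 and 18.2 CPM in the P libraries and 1.02 and 2.59 CPM in the T libraries. Timp3 was at 0 in Ly6D+Gfra2+, at least 103-fold lower than the Ly6D+Gfra2- mean over both prefixes (edgeR adjusted p = 0.049999). This call was lost without any one of the 13 libraries. Without Ly6D+Gfra2- replicate 1 the bound for Timp3 was 64.9-fold. That mean came mostly from the P libraries, while all Ly6D+Gfra2+ libraries have prefix T. Against the T libraries of Ly6D+Gfra2- alone, at 1.02 and 2.59 CPM, a bound of 103-fold does not hold. Mmp24, a membrane-bound metalloproteinase, was at 0, 6.52, 3.37 and 6.86 CPM in Ly6D+Gfra2-, and Paqr7, a membrane progestin receptor, at 16.0, 0.712, 3.07 and 14.8 CPM. Unc5a, a netrin receptor, did not share the lower level: it was at 10.2, 46.0, 12.4 and 5.06 CPM in Ly6D+Gfra2-, against 12.2 ± 4.16 CPM in Ly6D-Gfra2-. Cmtm4, a membrane protein of the CKLF-like family, was at 0 to 10.9 CPM.

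Genes of metabolism had a median ratio of the Ly6D+Gfra2- to the Ly6D-Gfra2- mean of 1.28 over 7 genes, against 0.536 over all 42 members. Of the 7, 0 were early, 4 mixed and 3 late, so the late share was near the 40.5% of all members. Acot11 (NM_025590, chromosome 4, 106744555 to 106805007) is a thioesterase that splits long-chain acyl-CoA into fatty acid and coenzyme A. Its lowest, median and highest levels in Ly6D-Gfra2- were 4.72, 12.6 and 31.6 CPM (mean 15.03 ± 9.61, SD, n = 6). In Ly6D+Gfra2- replicates 1, 2, 5 and 6 it was at 0.760, 28.4, 10.01 and 23.6 CPM, and it was at 0 in all Ly6D+Gfra2+ libraries. The lone Ly6D+Gfra2- library under 1 CPM was replicate 1, the one with fewest detected identifiers. Acot11 was at least 140-fold lower in Ly6D+Gfra2+ than in Ly6D+Gfra2- (edgeR adjusted p = 0.0336), a call lost without any one of 8 libraries (Ly6D-Gfra2- replicates 1, 2, 4, 5 and 6, Ly6D+Gfra2+ replicate 5, Ly6D+Gfra2- replicates 5 and 6; highest adjusted p = 0.0788). Its exons overlap those of Fam151a on the other strand, and the counting strand is not stated. Of 15 tested acyl-CoA thioesterases and synthetases, Acot11 was the one called lower and 0 were called higher. Since the rule chose Acot11 by its Ly6D+Gfra2+ values, this count is a description.

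Cpt2, the inner-membrane carnitine transferase of fatty acid oxidation, was at 12.4, 15.3 and 30.5 CPM (lowest, median and highest) in Ly6D-Gfra2-, at 6.08, 34.4, 44.6 and 18.4 CPM in Ly6D+Gfra2- and at 0.920, 0.111 and 0 CPM in Ly6D+Gfra2+ replicates 4, 5 and 6. Its level fell by 6.10 on the log2 scale from Ly6D+Gfra2- to Ly6D+Gfra2+, with an SE of 1.25 (edgeR adjusted p = 0.0428). Without Ly6D+Gfra2+ replicate 4, which held 8 of its counts, this log2 fold change was -8.50, and without Ly6D+Gfra2- replicate 5 it was -5.52 (edgeR adjusted p = 0.142). Tst, a mitochondrial sulfur transferase, had the lowest ratio of the metabolic members: it was at 8.43, 26.6 and 45.7 CPM in Ly6D-Gfra2- and at 3.74, 16.7, 1.23 and 0 CPM in Ly6D+Gfra2- (log2 fold change -2.91 ± 1.18, SE, edgeR adjusted p = 0.988). Coq4, needed for coenzyme Q synthesis, ran from 0.697 to 64.9 CPM in Ly6D+Gfra2-, and Pdp1, a phosphatase that activates pyruvate dehydrogenase, from 2.03 to 22.5 CPM. B4gat1, a glycosyltransferase that acts on dystroglycan, ran from 0.900 to 8.60 CPM there, with a ratio of 0.421 to its Ly6D-Gfra2- mean of 10.1 CPM.

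**Figure D4:**
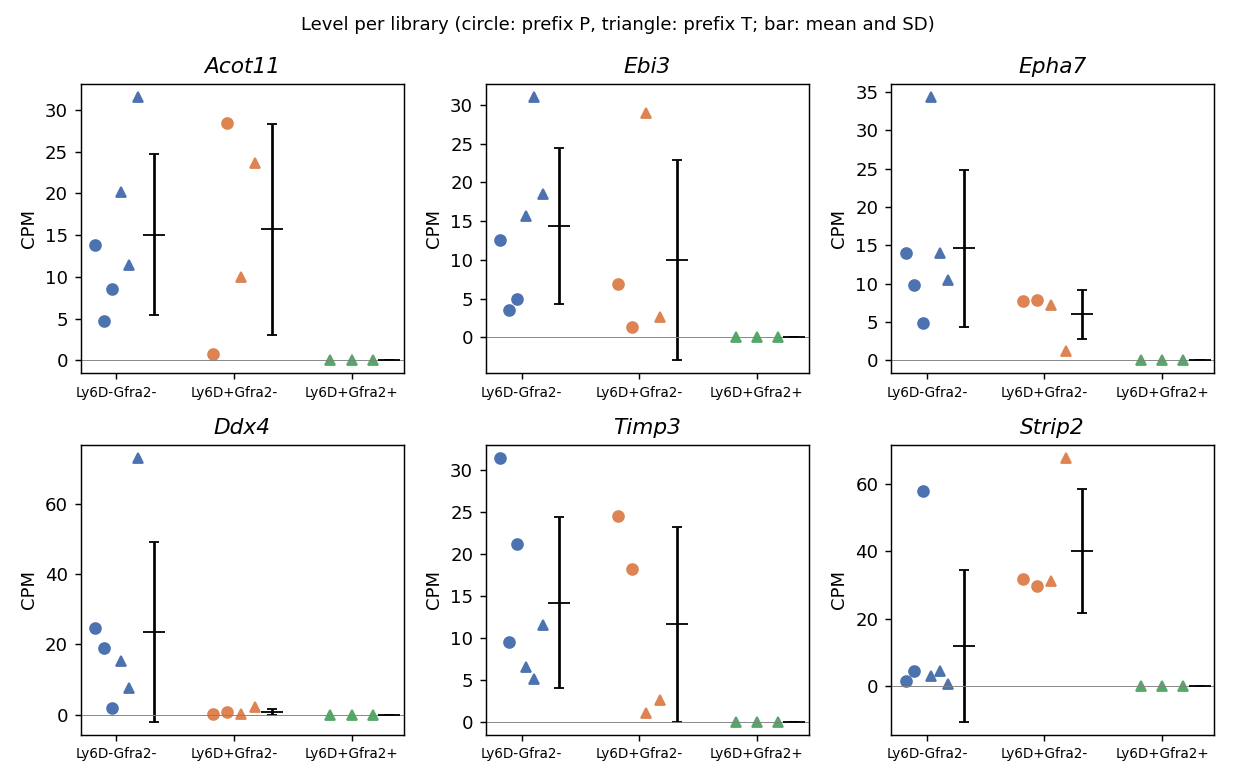
CPM of Acot11, Ebi3, Epha7, Ddx4, Timp3 and Strip2 in every library (circles, prefix P; triangles, prefix T; black bars, mean and SD of 6, 4 and 3 libraries, which can reach under 0 where the spread is wide). All 6 genes are at 0 in Ly6D+Gfra2+; Ddx4 is at 2.14 CPM or less in Ly6D+Gfra2-, while Strip2 is at 29.7 CPM or more there.

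Nuclear and RNA-related members numbered 7, 0 early, 3 mixed and 4 late, with a median ratio of 1.09. Ddx4 (NM_010029, chromosome 13, 112598333 to 112652633), an RNA helicase known as the germ cell marker Vasa, was at 24.7, 18.9, 1.96, 15.2, 7.48 and 73.2 CPM in Ly6D-Gfra2- replicates 1 to 6. In Ly6D+Gfra2- replicates 1, 2, 5 and 6 it was at 0.0633, 0.602, 0.204 and 2.14 CPM, and it had 0 counts in Ly6D+Gfra2+. The lowest Ly6D-Gfra2- library, replicate 3, is the one with Ly6d at 239 CPM, and it overlapped the Ly6D+Gfra2- group. The other 5 lay above all Ly6D+Gfra2- libraries. On the log2 scale, the fitted Ly6D+Gfra2- level relative to Ly6D-Gfra2- came to -5.04 ± 1.25 (SE), with an adjusted p of 0.807 by edgeR and 0.00250 by DESeq2. Ddx4 was at least 210-fold lower in Ly6D+Gfra2+ than in Ly6D-Gfra2-, the contrast that chose it, and at least 122-fold without Ly6D-Gfra2- replicate 6.

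Snapc2, a subunit of the complex that starts small nuclear RNA transcription, was at 50.5, 13.4, 2.45 and 72.4 CPM in Ly6D+Gfra2-, against 6.99, 21.1 and 27.9 CPM (lowest, median and highest) in Ly6D-Gfra2- and 0.575, 0 and 0.445 CPM in Ly6D+Gfra2+ replicates 4, 5 and 6. It was lower in Ly6D+Gfra2+ than in Ly6D+Gfra2- with a log2 fold change of -6.35 ± 1.34 (SE, edgeR adjusted p = 0.0477). This call was lost in 12 of the 13 fits that left out 1 library, and without Ly6D+Gfra2- replicate 6 the log2 fold change was -4.53 (edgeR adjusted p = 0.276). Homez, a homeodomain and leucine zipper protein, was at 11.1, 16.5, 35.4 and 1.12 CPM against 6.85 to 24.6 CPM in Ly6D-Gfra2-, so 1 library lay above and 1 below that range while the group means were close (16.0 and 14.6 CPM). Magee2, a MAGE family protein on the X chromosome, was at 65.4 CPM in Ly6D+Gfra2- replicate 2 and at 2.98 to 9.10 CPM in the other three. D130017N08Rik, the non-coding member, was likewise at 81.4 CPM in Ly6D+Gfra2- replicate 6 and at 3.99 to 7.56 CPM elsewhere in that group, so single libraries set both means. Prmt2, an arginine methyltransferase, owed 84.1% of its summed Ly6D-Gfra2- level to replicate 5 (59.0 CPM) and was at 0 to 1.53 CPM in Ly6D+Gfra2-. Zswim9, a zinc finger protein, was at 0.225 to 7.03 CPM there.

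Signalling and cytoskeletal members numbered 13, 0 early, 7 mixed and 6 late, with a median ratio of 0.744. Strip2 (NM_177204, chromosome 6, 29916976 to 29959681) is a subunit of STRIPAK, a complex that joins phosphatase PP2A to kinases. In Ly6D-Gfra2- replicates 1 to 6 it was at 1.47, 4.48, 57.7, 2.96, 4.55 and 0.741 CPM, and in Ly6D+Gfra2- replicates 1, 2, 5 and 6 at 31.8, 29.7, 31.2 and 67.5 CPM. It had 0 counts in Ly6D+Gfra2+. All 4 Ly6D+Gfra2- libraries lay above 5 of the 6 Ly6D-Gfra2- libraries, and the sixth, replicate 3, is the library with Ly6d at 239 CPM. Without that library the gene no longer reached the mean of 10 CPM. Between Ly6D+Gfra2- and Ly6D-Gfra2- its log2 fold change was 2.64 ± 1.13 (SE, edgeR adjusted p = 0.999), and 4.09 with an adjusted p of 0.392 without Ly6D-Gfra2- replicates 3 and 5. The part of Ly6D+ cells in replicate 3 was not tested. Strip2 was at least 357-fold lower in Ly6D+Gfra2+ than in Ly6D+Gfra2- (edgeR adjusted p = 0.0428). It was the one gene called lower among 20 tested STRIPAK genes, with 0 called higher (median log2 fold change 0.19, against 0.03 over all genes). The rule chose Strip2 by its Ly6D+Gfra2+ values, so this count is a description.

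Klhl30, a kelch-like protein, was at 4.37, 28.3, 10.9 and 6.30 CPM in Ly6D+Gfra2- and had 1 count in all Ly6D+Gfra2+ libraries together (means of 12.5 and 0.0371 CPM, edgeR adjusted p = 0.0428). Kif7, a kinesin of Hedgehog signalling, was at 33.6, 12.05, 5.42 and 5.85 CPM in Ly6D+Gfra2-, against a Ly6D-Gfra2- mean of 14.5 ± 11.8 CPM. Capn10, a calcium-dependent protease, was at 21.8, 12.9, 10.2 and 0.787 CPM against 14.5 ± 6.83 CPM. Both overlapped between the 2 Gfra2- groups. Lower values were seen for Armcx1, an armadillo-repeat protein of mitochondria (1.33 to 7.31 CPM in Ly6D+Gfra2-, 5.04 to 25.6 CPM in Ly6D-Gfra2-), and for Necab3, a calcium-binding protein (1.39 to 7.15 and 3.50 to 21.5 CPM). Dgkg, a diacylglycerol kinase, ran from 0 to 9.40 CPM in Ly6D+Gfra2- and from 1.38 to 24.1 CPM in Ly6D-Gfra2-.

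Several members of this role rested on 1 Ly6D-Gfra2- library. Dusp28, a dual-specificity phosphatase, was at 71.4 CPM in Ly6D-Gfra2- replicate 5 (81.4% of its summed level) and at 0.741 to 5.82 CPM in the other five. Ppp1r13l, an inhibitor of p53 family proteins, was at 51.9 CPM in replicate 1 (71.7%), Ank1, the ankyrin of red cell membranes, at 38.3 CPM in replicate 3 (62.4%), and Kcnrg, a regulator of potassium channels, at 40.0 CPM in replicate 4 (56.0%). In Ly6D+Gfra2- their levels were 0.0633 to 2.02 CPM for Dusp28, 0 to 12.4 CPM for Ppp1r13l, 1.35 to 11.2 CPM for Ank1 and 0.0633 to 30.8 CPM for Kcnrg. Fyb2, an adaptor related to the T cell protein ADAP, was at 21.6, 13.4, 2.45 and 0 CPM in Ly6D+Gfra2-, and Pacsin1, a membrane-bending protein, at 0.190, 8.16, 28.5 and 6.41 CPM.

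Members of neutrophil granules and innate sensing had a median ratio of 0.0562 over 3 genes, of which Ngp and Lcn2 rested on 1 Ly6D-Gfra2- library. Ngp, a neutrophil granule protein, was at 129 CPM in Ly6D-Gfra2- replicate 5 and at 0 to 0.593 CPM in the other 5 libraries, so that replicate held 99.5% of its summed level. Lcn2, a siderophore-binding granule protein, was at 76.3 CPM in the same library (98.9%) and at 0 to 0.741 CPM in the others. Neither is a member without replicate 5, and Lcn2 is 1 of the 2 early-loss genes. In Ly6D+Gfra2-, Ngp was at 0, 0, 4.09 and 0.787 CPM and Lcn2 at 0, 0, 0.204 and 0 CPM. Over the whole list of 20 granulocyte and monocyte markers, the summed level was 913 to 1808 CPM in Ly6D-Gfra2-, 581 to 881 CPM in Ly6D+Gfra2- and 265 to 518 CPM in Ly6D+Gfra2+, and replicate 5 (1743 CPM) was not the highest library. Mpo alone was at 98.2 to 1277 CPM, while Ltf was at 0 in every Ly6D+ library. The part of mature neutrophil RNA in these 2 members was not tested. Naip6, a sensor of bacterial proteins with close paralogs among which reads could be split, was found in all 6 Ly6D-Gfra2- libraries (6.26 to 18.8 CPM) and was at 0.0633, 12.5, 0.818 and 5.06 CPM in Ly6D+Gfra2-.

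In all, 9 members owed over 50% of their summed Ly6D-Gfra2- level to 1 library, and 21 of 42 dropped out of the set when some single Ly6D-Gfra2- library was left out. Replicate 5 ended membership for 9 genes (Ank1, B4gat1, Cmtm4, Dgkg, Dusp28, Lcn2, Ngp, Prmt2 and Tmem44) and replicate 1 for 8. The set also depended on each Ly6D+Gfra2+ library, since 105 genes met the rule without replicate 4, 64 without replicate 5 and 146 without replicate 6. Exons of 17 members overlap those of another annotated gene, mostly on the opposite strand. Acot11, Ebi3, Timp3, Unc5a, Kif7, Coq4 and Zswim9 are among them, each with a gene on the opposite strand. The counting strand is not stated, so the part of the overlapping genes in these counts is not known.

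Clu, the secreted chaperone clusterin, behaved like the late-loss members at a level below the mean threshold. It was at 7.79, 15.1, 7.34, 2.15, 6.63 and 9.33 CPM in Ly6D-Gfra2- replicates 1 to 6 and at 17.2, 2.14, 7.05 and 8.44 CPM in Ly6D+Gfra2- replicates 1, 2, 5 and 6. It was at 0 in all Ly6D+Gfra2+ libraries (edgeR adjusted p = 0.0428 against Ly6D+Gfra2-). The actin-branching factor Cttn had the same form, with a Ly6D-Gfra2- mean of 6.73 ± 3.43 CPM (SD, n = 6), a Ly6D+Gfra2- mean of 14.0 ± 11.8 CPM (SD, n = 4) and 0 in Ly6D+Gfra2+ (edgeR adjusted p = 0.0364). Of 12 tested T lineage and Notch genes, 1 was called lower in Ly6D+Gfra2+ than in Ly6D+Gfra2-, as was 1 of 12 dendritic cell genes. Neither of these called genes is a member. The member Pacsin1 is on the dendritic cell list and was not called (edgeR adjusted p = 0.114). Estimates were negative in 11 of the 12 dendritic cell genes (median log2 fold change -1.93) and in 9 of the 12 T lineage genes (median -0.53). The stem, granulocyte, erythroid, mast cell and natural killer lists had 0 called. Over all genes, 26 of 12722 were called lower (0.204%). Cd28, a T cell costimulatory receptor, went from a mean of 84.7 ± 39.0 CPM (SD, n = 4) to 1.27 ± 0.742 CPM (SD, n = 3; edgeR adjusted p = 0.00384), and Runx2, counted here as a dendritic cell marker, from 1906 ± 392 to 341 ± 66.0 CPM (edgeR adjusted p = 0.00384). B lineage genes went the other way, with 6 of 21 tested called higher and 0 lower, against 26 of 12722 genes higher. These 6 were Igll1, Cd24a, Pou2af1, Cd79a, Foxo1 and Rag1. Between Ly6D+Gfra2- and Ly6D-Gfra2-, 0 genes of any of the 18 lists were called, beside 0 of all 12722 genes. The sort marker Ly6d was itself among the genes not called, so nothing is read from this 0.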

How the data were processed

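Deposited values are raw counts per RefSeq identifier, 1 table per library, per the file headers. FastQC, HISAT, TopHat, HOMER, DESeq and mm10 are named, per the submitters' processing notes, without role, version or order. Annotation version, strand setting and multi-mapping are not given in the sources used here. CPM leaves out NR_046233, a ribosomal RNA identifier holding 2.07% to 11.6% of counts. Names and coordinates came from RefSeq (GRCm38.p6, 23815 of 24072 identifiers) and GENCODE M21 (144).

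edgeR 4.0.16 (quasi-likelihood, R 4.3.3) fitted all 13 libraries with group and prefix terms, TMM and filterByExpr (minimum count 10, minimum total 15). Tests were two-sided, with Benjamini-Hochberg adjustment over 12722 genes at 0.05. A run on simulated data without a prefix effect checked the code only and is no measure of the calls reported here. DESeq2 1.42.0, other scalings, filters, thresholds and libraries left out were alternatives. Bounds take 3 counts over the group and cover counting error only, since amplified reads are not separate molecules. Of the 42 members, 41 are named, since 1 is not reported here beyond the counts, with sort markers, genes next to the thresholds and list genes called. Cttn was named as a called list gene. Members and lists were chosen with earlier results of these data known.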

Additional observations from a re-analysis of the deposited data

Results flagged for a closer look

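Of 84 groups of member values checked (42 genes in 2 groups), 16 had a library whose gap to its nearest neighbour took up most of the group's range. Chance flags about 1 in 20 groups where values are normally distributed, which was not checked for these low and skewed levels. The rule also used the Ly6D-Gfra2- values, and 1 high library can lift a gene over its mean. High flags in that group are therefore raised by the choice of members, and 1 in 20 is no measure for them. Ly6D-Gfra2- replicate 5 was the high library in 4 of them, with Ngp at 129 CPM, Lcn2 at 76.3 CPM, Dusp28 at 71.4 CPM and Prmt2 at 59.0 CPM. Ly6D-Gfra2- replicate 3 was high for Strip2 (57.7 CPM) and Ank1 (38.3 CPM), and replicate 4 for Kcnrg (40.0 CPM) and Epha7 (34.4 CPM). Ddx4 was high in Ly6D-Gfra2- replicate 6 (73.2 CPM), Ppp1r13l in replicate 1 (51.9 CPM) and Cpt2 in replicate 2 (30.5 CPM).

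In Ly6D+Gfra2-, replicate 6 was high for D130017N08Rik (81.4 CPM) and Strip2 (67.5 CPM) and low for Epha7 (1.24 CPM). Magee2 was high in replicate 2 (65.4 CPM). Lcn2 was at 0.204 CPM (2 counts) in replicate 5 and at 0 in the other three.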

How the results depend on the processing

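Scaling, filter and threshold moved the size of the set. No member named for a test reversed direction under the alternatives run. Where Ly6D+Gfra2+ was compared, the rule fixed the low side. The other estimates followed were picked by an unadjusted p under 0.05 in these data. The lack of reversal is therefore no test of stability. With TMM-scaled library sizes 1 member was early and 11 late. Under a limit of 0.5 CPM in Ly6D+Gfra2+, 11 were late, and under 2 CPM the set held 77 genes, 34 late and 37 with a ratio to Ly6D-Gfra2- under 0.5. A mean of at least 20 CPM left 3 genes, 0 early, 0 late and 3 with such a ratio, and a median of at least 10 CPM gave 1 early gene and 12 with such a ratio. A timing limit of 0.5 CPM gave 1 early and 22 late genes, and one of 2 CPM gave 3 early and 10 late. Libraries of prefix T alone gave 52 genes, 27 shared with the 42, with 11 early and 37 with a ratio under 0.5. Leaving out Ly6D-Gfra2- replicates 3 and 5 together, chosen after seeing the data like the fit without NR_046233, gave 4 early genes, and members called lower in Ly6D+Gfra2+ numbered 2 against Ly6D+Gfra2- and 4 against Ly6D-Gfra2-.

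Members called against Ly6D+Gfra2- and against Ly6D-Gfra2- numbered 29 and 38 with DESeq2, 17 and 30 with no filter and 0 and 1 with prefix T alone, and without the prefix term 14 against Ly6D+Gfra2-. DESeq2 called 3 between Ly6D+Gfra2- and Ly6D-Gfra2-. Each library left out in turn gave 37 to 146 genes, 0 to 4 early, 14 to 85 late and 15 to 58 with a ratio under 0.5; 4 early genes came without Ly6D+Gfra2- replicate 6, and the other high ends without a Ly6D+Gfra2+ library, where the rule has 1 library fewer to meet. Calls ranged from 1 to 10 against Ly6D+Gfra2- and from 5 to 19 against Ly6D-Gfra2-, and were 0 throughout between the 2 Gfra2- groups.

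Whether the same replicate number in 2 groups pairs libraries was not settled. Of 9 such pairs, 1 had a correlation of deviations from group means over 0.1 (range -0.04 to 0.14, against -0.03 to 0.12 for other numbers). With so few libraries, these values cannot exclude pairing. With the replicate block in place of the prefix, 2 members were called against Ly6D+Gfra2- and 4 against Ly6D-Gfra2-, where the main fit called 9 and 15. Between the 2 Gfra2- groups, 0 were called in both fits. Depth limits single-library values to about 0.143 to 0.444 CPM (3 counts).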
